A study of Mus musculus with 6 samples.

Results

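Hyaluronan is a long, unsulfated sugar polymer of the extracellular matrix, and the 8 genes described here cover its synthesis, its breakdown, a matrix protein that modifies it and its main cell-surface receptor. They were taken by symbol from a counts table of 26971 genes: the synthases Has1, Has2 and Has3, the hyaluronidases Hyal1 and Hyal2, the depolymerase gene Cemip, the hyaluronan-binding matrix protein Tnfaip6 and the receptor Cd44. All 8 symbols were found, and 4 of them passed the filter on low counts and were tested.

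The libraries are polyadenylated RNA from kidney cortex of male C57BL/6 mice, taken 1 day after surgery. IRI, the usual abbreviation for ischaemia-reperfusion injury, was given to both groups. The 3 libraries titled CLK_IRI had IRI alone, and the 3 titled Cong_IRI had IRI with IVCC, a treatment that the labels do not spell out and that the series' design text calls renal congestion. Both groups are numbered 1 to 3. No age, genotype or uninjured kidney is given, so every value below is from an injured kidney, and nothing in the labels states that each library is a separate animal, so p-values measure a spread between libraries that may be technical.

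Hyaluronan is made at the plasma membrane by the HAS enzymes, which join UDP-glucuronic acid and UDP-N-acetylglucosamine and push the growing chain out of the cell. HYAL2 at the cell surface cuts long chains into fragments, which HYAL1 in the lysosome cuts further, and CEMIP takes up and depolymerises hyaluronan. CD44 binds the polymer on leukocytes, mesenchymal cells and injured epithelium, and TNFAIP6 (TSG-6) moves heavy chains of inter-alpha-inhibitor onto it. In the healthy kidney hyaluronan lies mainly in the inner medulla, and after injury it appears in the cortical interstitium.

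Total counts were 10865860 to 14350425 per library, and 3 counts, taken here as the floor, equalled 0.219 to 0.269 CPM (counts scaled to library size with TMM factors). The proximal tubule markers Lrp2, Cubn, Slc34a1, Slc5a2, Slc5a12 and Slc22a6 summed to 2167 to 6459 CPM, and the inner medulla markers Slc14a2 and Aqp4 to 35.7 to 426 CPM. In replicates 1, 2 and 3 the inner medulla sum was 47.6, 158 and 426 CPM in IRI and 116, 35.7 and 245 CPM in congested kidney. The sum of the collecting duct markers Aqp2, Scnn1g and Fxyd4 differed by 0.463-, 0.434- and 0.908-fold within numbers. The part of uneven dissection in the members' levels was not tested. Replicate 1 of both groups stood apart from the other 4 libraries: its injured tubule markers (Havcr1, Lcn2, Krt20, Sox9 and Vcam1) summed to 4265 CPM in IRI and 3446 CPM in congested kidney, against 1061 to 1371 CPM in the others. In edgeR's quasi-likelihood test the replicate numbers separated 8.01% of 14274 genes at an adjusted p under 0.05, and the groups 0%. Group results for the tested members are therefore given over all libraries and within equal numbers. The labels do not explain a shared number, and the pairing of numbers 2 and 3 is an assumption. In bulk tissue, fewer cells of a type and less RNA per cell cannot be told apart.

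Compared per kilobase of the longest annotated transcript, Hyal2 was the most abundant member, at 22.6 ± 1.31 CPM per kilobase (SD, n = 3) with IRI alone and 22.3 ± 2.40 (SD, n = 3) with congestion. Cd44 followed at a mean of 1.98 over all 6 libraries and Hyal1 at 1.30 CPM per kilobase. Cd44 lay above Hyal1 in 4 of the 6 libraries and their ranges overlapped, so their order was not beyond the spread. Cemip at 0.181 and Has3 at 0.130 CPM per kilobase also overlapped, and Cemip was the higher in 3 libraries. Tnfaip6, Has2 and Has1 closed the order at 0.0334, 0.0248 and 0.0203 CPM per kilobase, with overlapping ranges. The transcript of the surface hyaluronidase thus stood far above those of all 3 synthases in every library.

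Cd44 encodes the hyaluronan receptor and occupies bases 102811141 to 102901665 of chromosome 2 (GRCm38, minus strand). IRI replicate 1 held 11.7 CPM, replicate 2 held 5.62 and replicate 3 held 1.67. With congestion the same numbers held 33.0, 11.6 and 3.29 CPM. The groups overlapped, and the level also followed the replicate number: the lowest library of each group was replicate 3 and the highest was replicate 1. Within each number the congested library held more Cd44 RNA, by 2.82-fold in replicate 1, 2.05-fold in replicate 2 and 1.97-fold in replicate 3. This direction rests on the assumed pairing of numbers 2 and 3. IRI replicate 2 (5.62 CPM) lay above congested replicate 3 (3.29 CPM), so pairing those libraries would reverse it there. Of all tested genes 13.1% were higher in the congested library in each of the 3 numbers.

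**Figure D1:**
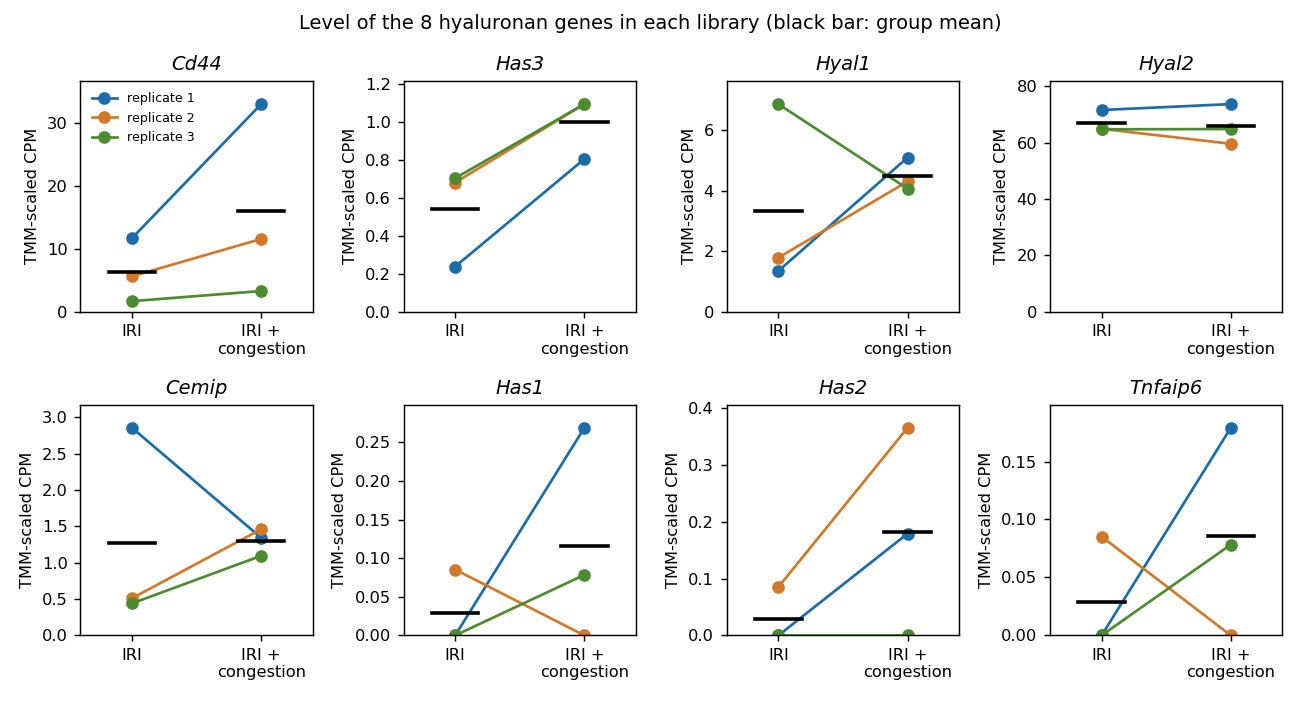
TMM-scaled CPM (y axis, starting at 0 and differing between panels) of the 8 members in the IRI and congested libraries, with points joined where the replicate number is the same and black bars at group means (n = 3). Cd44 is higher in the congested library of each number, from 1.67 to 3.29 CPM in replicate 3 up to 11.7 to 33.0 CPM in replicate 1, whereas Hyal2 stays between 59.6 and 73.7 CPM.

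The stretch before the RefSeq start is printed for the receptor and for Tnfaip6, an inflammation-induced gene on the same chromosome that was almost unread here, to set their sequences beside their levels. Each was read as 250 bases from RefSeq (build GRCm38.p6), 5′ to 3′ on the strand of the gene, with motif matches in capitals. The Cd44 stretch lies at chr2:102901666-102901915 (minus strand). GENCODE starts Tnfaip6 earlier, so that 104 of its 250 bases lie inside the GENCODE gene, and the 146 bases before both starts are printed, chr2:52037863-52038008 (plus strand).
Cd44: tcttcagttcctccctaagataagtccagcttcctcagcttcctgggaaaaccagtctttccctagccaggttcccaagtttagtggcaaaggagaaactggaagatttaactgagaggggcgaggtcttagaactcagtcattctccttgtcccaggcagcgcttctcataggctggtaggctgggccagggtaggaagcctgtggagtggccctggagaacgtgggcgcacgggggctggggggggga
Tnfaip6: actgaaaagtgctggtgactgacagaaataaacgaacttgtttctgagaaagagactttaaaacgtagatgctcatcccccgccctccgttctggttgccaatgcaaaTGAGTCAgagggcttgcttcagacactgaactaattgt
The motifs searched on both strands were TGANTCA (AP-1), GGAATG (TEAD) and TGACGTCA (cyclic AMP response element). Of 32851 RefSeq stretches of 250 bases 6.75%, 12.6% and 1.55% held them, in that order. The Tnfaip6 stretch held TGAGTCA at bases 109 to 115, before both starts. Its other match, CATTCC at bases 243 to 248, the reverse complement of the TEAD letters, is inside the GENCODE gene and is not printed. The matches do not overlap, and the 250 bases of Cd44 held none of the 3 motifs. Other members searched are not printed: Has1 held TGACGTCA at bases 168 to 175, and Hyal2 held CATTCC at bases 22 to 27. The Hyal2 stretch lies inside the GENCODE gene. Hyal1 and Cemip held no match, and Has2 and Has3 had no stretch to search. A match is a run of letters and says nothing of binding.

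In the test of congested against IRI kidney Cd44 was not called. The log2 difference was 1.32 (SE 0.88, edgeR adjusted p = 0.933), and its 95% confidence interval ran from -0.74 to 3.39. Blocking on the replicate number gave 1.20 (SE 0.24), with an interval from 0.66 to 1.74, and Cd44 ranked 7 of 14274 genes by p. The narrower interval and the rank rest on the assumed pairing of numbers 2 and 3. Cd44 was still not called (edgeR adjusted p = 0.577, DESeq2 adjusted p = 0.210, both with the block), and with the block edgeR called 0% of genes and DESeq2 0.056%. An unadjusted p under 0.05 with the block was reached by 1 of the 4 tested members, Cd44, and by 7.06% of all genes. Unblocked fits with 1 library left out, in which another library has no partner of its number, gave 2.13 when IRI replicate 1 was dropped and 0.22 when congested replicate 1 was. The blocked value was 1.01, 1.29 and 1.29 without replicate numbers 1, 2 and 3 in turn. Removing a per-library trend in length and GC content of transcripts from the blocked fit gave 0.96.

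Between the replicate numbers Cd44 was called, in a joint test of any difference among them (edgeR adjusted p = 0.00362). It was higher in number 1 than in the mean of numbers 2 and 3 by 2.19 on the log2 scale (SE 0.23). The level in replicate 1 was 6.97-fold that in replicate 3 in IRI and 10.02-fold in congested kidney. Hyal1, Hyal2 and Cemip were not called between the numbers, with adjusted p-values of 0.413, 0.742 and 0.303 in edgeR.

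Cd44 is carried by leukocytes as well as by injured tubule and mesenchymal cells, so the summed levels of marker lists are given beside it. The 12 macrophage markers, all 12 of them tested, summed to 113, 107 and 120 CPM in IRI replicates 1, 2 and 3. In congested replicates 1, 2 and 3 they summed to 324, 112 and 118 CPM, so that replicate 1 of the congested kidney stood alone. Within numbers 1, 2 and 3 this sum changed by 2.86-, 1.05- and 0.977-fold. Of the 12 markers 3 were higher in the congested library of every number, against 13.1% of all tested genes. Expressed as a percentage of the macrophage sum, Cd44 was 10.3, 5.25 and 1.39 in IRI and 10.2, 10.3 and 2.80 in congested kidney. The ratio was thus nearly equal between the groups in number 1, and 1.96- and 2.01-fold higher in the congested kidney in numbers 2 and 3.

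Neutrophil markers (8 of 11 listed were in the table, 4 tested) summed to between 5.02 and 73.4 CPM in IRI and between 7.75 and 219 CPM in congested kidney, and were 2.99-, 1.69- and 1.54-fold higher in congested replicates 1, 2 and 3. Relative to this sum Cd44 differed by 0.946-, 1.21- and 1.27-fold in the 3 numbers. The 9 fibroblast and mural markers summed to 231 to 469 CPM in IRI and 303 to 566 CPM in congested kidney, with folds of 1.31, 1.21 and 1.82. The sum of the 5 injured tubule markers differed by 0.808-, 0.946- and 1.29-fold, and that of the 7 endothelial markers by 1.10-, 1.16- and 0.938-fold. Taken singly, 6 of the 8 neutrophil and 4 of the 9 fibroblast and mural markers were higher in the congested library of every number. So were 2 of the 5 injured tubule and 2 of the 7 endothelial markers. Of the 9 lymphocyte markers 1 was tested, and their sum was 1.11 to 4.77 CPM over all libraries. Every gene of the counts table held a read in some library, so a marker absent from it may have gone unread. The part of any cell type in the level of Cd44 was not tested.

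**Figure D2:**
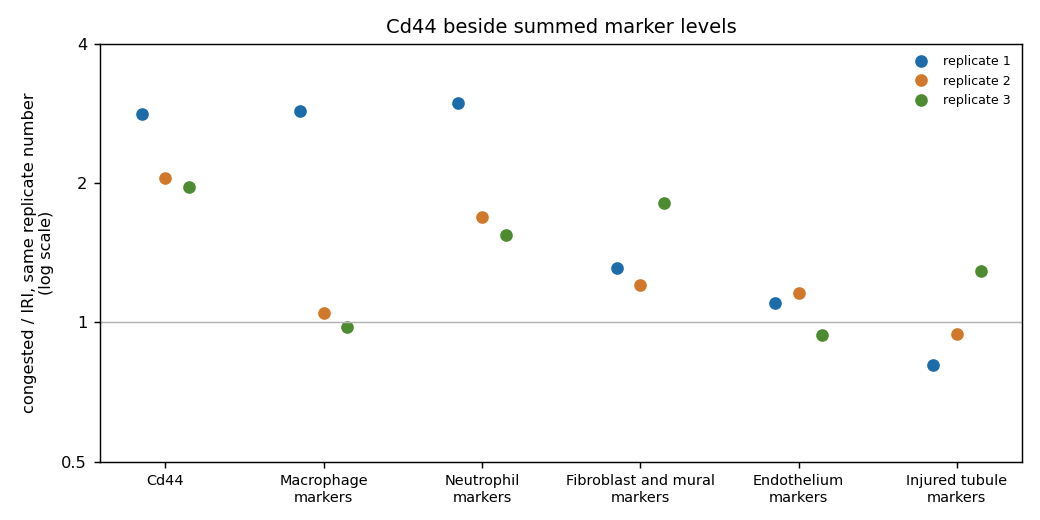
Ratio of the congested to the IRI library of the same replicate number (y axis, log scale) for Cd44 and for the summed CPM of 5 marker lists, with 1 point per number. Cd44 lies at 1.97-fold or above in each number. The macrophage sum moves in replicate 1 (2.86-fold) and stays near 1 in the others. The neutrophil sum (2.99-, 1.69- and 1.54-fold) and the fibroblast and mural sum (1.31-, 1.21- and 1.82-fold) are higher in each number. The endothelial and injured tubule sums lie on both sides of 1.

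Among the 10970 tested genes that averaged 5 CPM or more, those whose log2 CPM followed Cd44 most closely over the 6 libraries were Emp2 (Pearson r = 0.994), Lhfpl2 (0.990), Slc40a1 (0.989), Clptm1l (0.987) and Tfe3 (0.980). Emp2 encodes an epithelial membrane protein, Slc40a1 the iron exporter ferroportin and Tfe3 a transcription factor of lysosomal genes. The points share the replicate numbers, with replicate 1 apart, and r is a description. With total counts as the scale r for Clptm1l was 0.595. The blocked log2 fold changes of Emp2 and Lhfpl2 were 0.68 and 0.66, and those of Clptm1l and Tfe3 were 0.067 and 0.087, against 1.20 for Cd44.

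The synthases were near or below the limit of detection. Has1 (chromosome 17) was counted 0, 1 and 0 times in IRI replicates 1, 2 and 3 and 3, 0 and 1 times in the congested replicates. Has2 (chromosome 15), the synthase of mesenchymal tissue in development, was counted 0, 1 and 0 times in IRI and 2, 5 and 0 times in congested kidney. Summed over libraries that is 1 against 7 reads, a ratio of 6.64 after scaling to library size, with a 95% exact interval from 0.853 to 299. For Has1 the sums were 1 and 4 reads, a ratio of 3.79 (0.376 to 187). These intervals cover counting error only, and at this depth no difference was detectable for either gene. Has2 shares 182 exonic bases with the antisense gene Has2os, which held 0 to 3 reads per library.

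Has3, the synthase with the highest level here, lies on chromosome 8 and was counted 3, 8 and 8 times in IRI replicates 1, 2 and 3. With congestion there were 9, 15 and 14 reads, or 0.806, 1.10 and 1.10 CPM against 0.238, 0.682 and 0.705 CPM in IRI. The groups did not overlap, although the highest IRI library and the lowest congested one differ by a single read, 8 against 9. Of all 26971 genes with a count, 2.78% lay higher in the 3 congested libraries without overlap. Within numbers 1, 2 and 3 the congested library was 3.39-, 1.61- and 1.56-fold higher, and the summed ratio was 1.90 (95% exact interval 1.07 to 3.48, counting error only). The filter asks for a count of about 10, scaled to library size, in at least 3 libraries, and only congested replicates 2 and 3 reached it for Has3. Has3 had 57 reads in all, while Cemip, the tested member with the fewest, had 96. edgeR run without a filter gave it a log2 difference of 0.89 (SE 0.61) at an adjusted p of 0.822, and Has3 was not called. It shares 352 exonic bases with Chtf8 on the opposite strand.

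Among the degrading enzymes Hyal2 was nearly constant. This gene for the cell-surface hyaluronidase (chromosome 9, 107567945 to 107572779, plus strand) held 71.6, 64.9 and 64.8 CPM in IRI replicates 1, 2 and 3, against 73.7, 59.6 and 64.8 CPM with congestion. The ranges overlapped almost fully, and within numbers the ratios were 1.03, 0.918 and 1.00. The log2 difference was -0.023 (SE 0.18, edgeR adjusted p = 0.983), and 0.078 when scaled by total counts. The 95% interval ran from -0.45 to 0.41.

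Hyal1, the lysosomal hyaluronidase gene, lies 4147 bases downstream of Hyal2 on the same strand and varied far more. IRI replicates 1, 2 and 3 held 1.35, 1.79 and 6.87 CPM, against 5.11, 4.31 and 4.07 CPM with congestion. IRI replicate 3 was above, and IRI replicates 1 and 2 below, all 3 congested libraries. The congested kidney was 3.78- and 2.41-fold higher in numbers 1 and 2 and 0.593-fold in number 3. The log2 difference was 0.43 (SE 0.60, edgeR adjusted p = 0.934), 1.52 without IRI replicate 3 and 0.06 without IRI replicate 1. Its counts are uncertain: 50.8% of its annotated exonic bases are shared with Naa80 on the same strand, and 4.21% with Hyal3. Naa80 itself lay between 19.7 and 25.6 CPM in the 6 libraries.

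Cemip (chromosome 7), whose protein depolymerises hyaluronan independently of the HYAL enzymes, stood at 2.86, 0.511 and 0.441 CPM in the IRI libraries 1, 2 and 3. With congestion the libraries lay close together at 1.34, 1.46 and 1.10 CPM, inside the IRI range. Against IRI of the same number they differed by 0.470-, 2.86- and 2.49-fold, so replicate 1 went the opposite way to the others. The log2 difference was 0.021 (SE 0.72, edgeR adjusted p = 0.995). Without IRI replicate 1 it was 1.44. It was 1.41 with the block and without replicate number 1, again not called. Removing the trend in length and GC content gave -0.38 without the block. Its longest transcript has 7111 bases, the longest of the members.

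Tnfaip6 (chromosome 2), the hyaluronan-modifying matrix protein gene shown above, was counted 0, 1 and 0 times in IRI and 2, 0 and 1 times in congested kidney. The highest library held 0.179 CPM, below the floor, so no fold is given and a difference was not detectable at this depth.

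**Figure D3:**
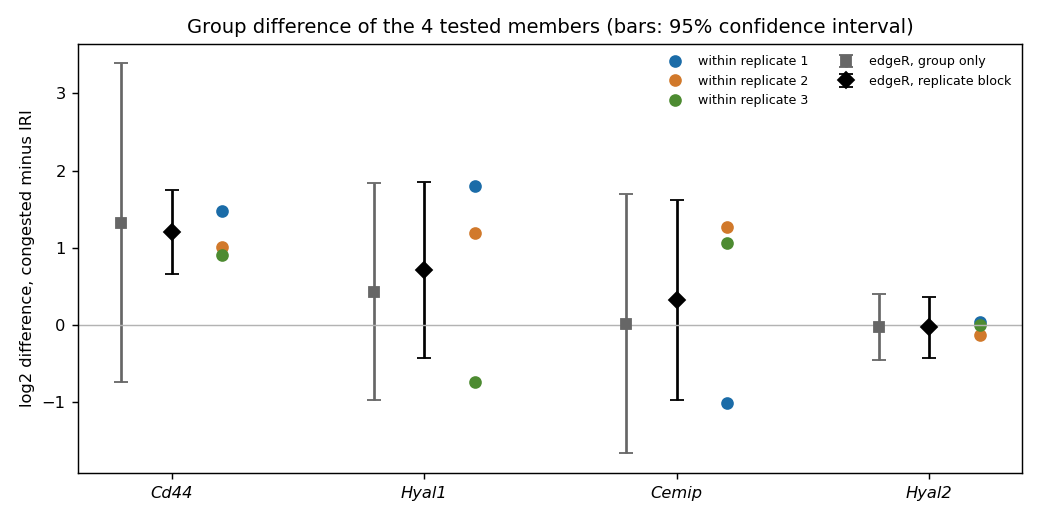
Log2 difference of congested minus IRI kidney (y axis) for the 4 tested members: squares are edgeR estimates with group alone, diamonds those with the replicate block, both with 95% confidence intervals, and coloured points are differences within a replicate number. The Cd44 interval narrows from -0.74 to 3.39 to 0.66 to 1.74 with the block, which assumes the pairing of numbers 2 and 3. The points of Hyal1 and Cemip lie on both sides of 0.

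Of the 4 tested members 0 were called and 3 had a log2 fold change above 0, where 49.6% of all genes did. Their median was 0.23 against -0.005 over all tested genes. The other genes of the pathway were taken from a list of 47, of which 43 were in the table and 31 were tested. None was called in either direction, 17 lay above 0 and 14 below, and the median was 0.085. No tested member or pathway gene reached an unadjusted p under 0.05 without the block, where 2% of all genes did. With the block 6 of the 31 reached an unadjusted p under 0.05 on the higher side and 1 on the lower, against 4.08% and 2.98% of all genes. The groups did not overlap for 2 of the 31, Stab1 and Ezr, both higher in congested kidney, and for 0 in the other direction, against 3.42% and 3.07% of all genes.

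Among enzymes that make the sugar precursors, 7 were tested and 2 lay above 0, with a median of -0.11. Gfpt1, the rate-limiting enzyme of the hexosamine pathway, stood at 68.0 ± 19.5 CPM (SD, n = 3) with IRI alone and 91.0 ± 8.74 CPM (SD, n = 3) with congestion, a log2 difference of 0.42. Pgm3, the phosphoacetylglucosamine mutase of the same pathway, stood at 43.9 ± 7.98 and 32.6 ± 7.91 CPM (SD, n = 3), a difference of -0.43. Both had an edgeR adjusted p of 0.933. Within numbers 1, 2 and 3 Gfpt1 was at 1.84, 1.55 and 0.899 times its IRI level in the congested library, so that number 3 went the other way, and Pgm3 was lower in each, at 0.728, 0.651 and 0.842 times. The block gave 0.45 (SE 0.23) for Gfpt1 and -0.44 (SE 0.18) for Pgm3, both at an edgeR adjusted p of 0.577. Ugdh, which makes UDP-glucuronic acid, differed by -0.084 with and without the block. Freed of the length and GC trend, the blocked fit gave 0.21 for Gfpt1, -0.38 for Pgm3 and -0.34 for Ugdh.

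Of the other degradation enzymes 5 were tested and 1 lay above 0, Cemip2, a cell-surface hyaluronidase gene, at 0.24 (SE 0.26). Gusb, the lysosomal beta-glucuronidase gene, differed by -0.22 on the log2 scale (SE 0.20). Each was at an edgeR adjusted p of 0.933. With the block the differences were 0.26 (SE 0.20) for Cemip2, which was not higher in number 3, and -0.21 (SE 0.18) for Gusb, which was lower in each number. Freed of the length and GC trend, the blocked fit gave 0.025 for Cemip2 and -0.13 for Gusb. The median of these 5 was -0.14.

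Other hyaluronan receptors had the highest median, 0.55, with 6 of 6 tested above 0 and 5 of them higher in the congested library of every number, where 13.1% of all genes were. With the block 5 of the 6 lay above 0, and Stab2 was at -0.021. Stab1, a scavenger receptor of endothelium and macrophages, held 9.21, 10.6 and 17.1 CPM in IRI replicates 1, 2 and 3, against 17.6, 18.8 and 20.4 CPM with congestion. The groups were separate by a narrow gap, and the log2 difference was 0.62 (SE 0.28, edgeR adjusted p = 0.933). Tlr4, the toll-like receptor through which hyaluronan fragments have been reported to signal, lay at 3.97, 2.13 and 3.26 CPM in IRI and 9.76, 5.41 and 3.29 CPM in congested kidney. In number 3 the 2 libraries were nearly equal, and the log2 difference of 0.97 (SE 0.46, edgeR adjusted p = 0.933) was 0.47 without congested replicate 1. Macrophage markers moved in replicate 1, as given above, and their part in these values was not tested. The blocked fit freed of the length and GC trend gave 0.38 for Stab1 and 0.71 for Tlr4.

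Hyaluronan-binding and cross-linking matrix proteins had 5 tested members, 1 of them above 0, and a median of -0.25. Vcan, the large proteoglycan versican that hangs on hyaluronan, held 1.11, 2.05 and 1.15 CPM in IRI replicates 1, 2 and 3, against 11.8, 4.02 and 0.861 CPM with congestion. The difference sat in replicates 1 and 2, while replicate 3 of the congested kidney was the lowest of all 6. The log2 difference was 1.94 (SE 0.84, edgeR adjusted p = 0.933), 0.77 without congested replicate 1, and 1.04 in the blocked fit freed of the length and GC trend. Itih2, a heavy chain that TNFAIP6 transfers to hyaluronan, differed by -0.74 (SE 0.93, edgeR adjusted p = 0.933), and by -0.70 (SE 0.33, edgeR adjusted p = 0.577) with the block. Its congested library stood at 0.376, 0.990 and 0.520 times the IRI level in numbers 1, 2 and 3. Without IRI replicate 3 the unblocked difference was 0.52, in a fit that leaves congested replicate 3 with no partner, and the block without number 3 gave -0.50. The cross-linker gene Ptx3 lay below the filter, between 0.157 and 1.11 CPM.

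Of 8 tested ligands and partners of CD44, 7 lay above 0, with a median of 0.34. Spp1, the gene for the CD44 ligand osteopontin, held 40190, 13350 and 4782 CPM in IRI replicates 1, 2 and 3, against 59190, 15300 and 8781 CPM with congestion. It had the order of Cd44 in both groups, replicate 1 highest and replicate 3 lowest, and was 1.47-, 1.15- and 1.84-fold higher in the congested library of each number. Of all tested genes 13.1% were higher in each number. The groups overlapped for Spp1, which was not called, at a log2 difference of 0.51 (SE 0.91, edgeR adjusted p = 0.943). With the block it was 0.54 (SE 0.23, edgeR adjusted p = 0.577). Msn, the gene for moesin, which ties the CD44 tail to actin, stood at 253 ± 77.0 and 377 ± 86.0 CPM (SD, n = 3), a log2 difference of 0.58 (SE 0.31). Mmp9, a protease that docks on CD44, differed by 2.10 on the log2 scale (SE 1.25). For both genes the edgeR adjusted p was 0.933. With the block Msn gave 0.60 (SE 0.22) and Mmp9 2.31 (SE 0.48), both at an edgeR adjusted p of 0.577. Mmp9 was 3.87-, 16.3- and 4.44-fold higher in the congested library of numbers 1, 2 and 3, with 1 read each in IRI replicates 2 and 3. Its unblocked difference was 0.50 without congested replicate 1, which leaves IRI replicate 1 with no partner, and the block gave 1.96 without number 2 and 2.31 without number 3. Without number 1 Mmp9 did not pass the filter. The neutrophil marker sum was also higher in each number, as given above, and its part in the Mmp9 values was not tested.

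**Figure D4:**
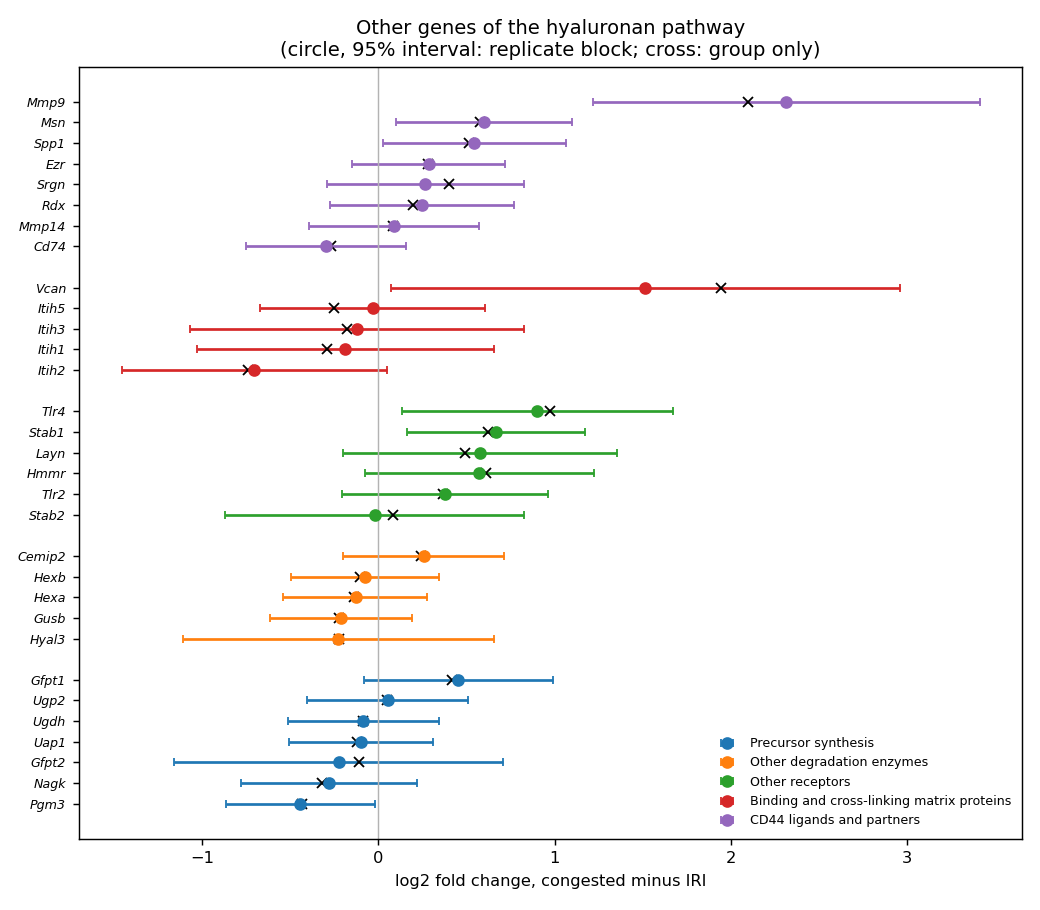
Log2 fold change of congested minus IRI kidney (x axis) for the 31 tested pathway genes by role: circles with 95% confidence intervals are edgeR estimates with the replicate block, and crosses those without it. Intervals of 6 genes lie above 0 and that of Pgm3 below, before any adjustment for the 14274 genes tested.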

How the data were processed

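Polyadenylated RNA from kidney cortex was sequenced in 6 libraries, 3 per group, grouped by sample title. The authors deposited whole-number read counts per gene, not normalized, as the values show. Per the submitters' processing notes, STAR 2.7.10a, featureCounts, Subread and the build GRCm38 were used, with no role stated. The labels give no strand or multimapping setting, so overlapping genes may share or lose reads. Rows with an identifier in place of a symbol (258) held 0.0272% of counts.

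Counts were tested with edgeR 4.0.16 (R 4.3.3): TMM factors, filterByExpr (minimum count 10, minimum total 15; 14274 genes left), a robust quasi-likelihood F test on group, Benjamini-Hochberg adjustment over all tested genes and calls at adjusted p under 0.05. Log2 CPM used a prior count of 2, and 95% intervals used the standard error (SE) and the fit's degrees of freedom. Replicate numbers were tested jointly with group in the model, so that this p covers any difference among the numbers. The fits were checked on simulated data. Simulated counts for the group fits held no difference between replicate numbers, so that check does not cover such a difference. Coordinates and longest-transcript lengths came from GENCODE M21 (GRCm38). Length and GC content, known for 95.6% of tested genes, gave the per-library trend (mgcv 1.9.3, basis 6).

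The labels do not say what a shared number means. Deviations from the group means correlated at 0.724, 0.342 and 0.429 between libraries numbered 1, 2 and 3. IRI replicate 2 correlated more closely with congested replicate 3, at 0.401, than with congested replicate 2. IRI replicate 3 correlated at 0.249 with congested replicate 2. With replicate 1 apart in both groups, these values cannot settle the pairing of numbers 2 and 3, which the block assumes. Within groups, libraries differed beyond sampling noise (chi-square per degree of freedom 18.8 to 194).

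Members and lists were chosen with earlier results of these data known. Named were all members, 2 genes per role group by smallest p (others were named after their values were seen) and the 5 genes most like Cd44. No synthase passed the filter, so none has a likeness list. Alternatives were other scaling factors and filters, DESeq2 1.42.0, limma-voom 3.58.1, a fit that is not robust, the replicate block, the trend and left-out libraries.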

Additional observations from a re-analysis of the deposited data

How the results depend on the processing

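edgeR called 0 genes between the groups, with 285 at an unadjusted p under 0.05. DESeq2 and limma-voom without the block also called 0, with 354 and 285. With the replicate block edgeR called 0 genes (1008 at an unadjusted p under 0.05), limma-voom 0 and DESeq2 8, none of them a member or pathway gene. The 8 were Ccl6, Ccl9, Flna, Hp, Apoc3, Chil3, S100a8 and Rn18s-rs5, and S100a8 is on the neutrophil marker list. Leaving out libraries gave 0 to 5458 genes, 0 to 2 members and 0 to 13 pathway genes. The upper values came from the block without replicate number 3, which called 37.8% of 14453 genes. Cd44 (log2 fold change 1.29) and Hyal1 (1.58) were among them. Without number 1 or 2 the block called 12 and 9 genes and 0 members. Each of these blocked fits leaves 1 residual degree of freedom. A left-out library outside the block leaves its partner unmatched.

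Between replicate numbers 1144 genes were called, and 1863 by DESeq2, 2093 with the length and GC trend removed, 3231 without a filter and 854 to 7862 with a library left out. Cd44 was called in each fit that kept every library, with adjusted p-values from 4.98e-16 to 0.00593. Leaving out a library leaves its replicate number with a single library, so members called in those fits are not given. The log2 fold change of Cd44 between groups was 1.30 to 1.45 over the 4 scalings and above 0 in every fit run. Signs turned in these fits: Hyal2 gave 0.078 with total counts, 0.032 with the trend, 0.024 with the trend and the replicate block, 0.021 with the block without number 2, and -0.11 to 0.046 with libraries left out. Cemip gave -0.38 with the trend, -0.15 and -0.038 with the block without numbers 2 and 3, and -0.37 to 1.44 with libraries left out, Itih2 -1.59 to 0.52, and Hyal1 between numbers -1.49 to 0.24. The cause was not tested. Depth limits Has1, Has2 and Tnfaip6, with at most 5 reads in a library.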
